A study of Mus musculus with 2 samples.

Results

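The genes described here are 9 interferon-induced antiviral effectors of the mouse, the Ifit genes Ifit1, Ifit2, Ifit3 and Ifit3b and the Oas genes Oas1a, Oas2, Oas3, Oasl1 and Oasl2. They were chosen by symbol from a gene list of 27998 entries with 27933 symbols. All 9 were listed in both libraries, and 8 of the 9 had at least 1 unique molecular identifier (UMI, the tag that marks 1 captured RNA molecule). The allogeneic library came from lymph node immune cells of BALB/c mice that had received a C57BL/6 heart, and the syngeneic library from lymph node immune cells of BALB/c mice that had received a BALB/c heart. Mice of both groups were 6 to 8 weeks old. An allogeneic graft carries antigens foreign to its recipient, and a syngeneic graft is matched to it, so both groups share the transplant surgery. Each group had 1 single-cell 3′ library, how many mice were pooled for either one is not stated in the labels, and no difference below has a replicate check or a test.

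Interferons bind receptors on the cell surface and act through JAK kinases and STAT proteins, which switch on many genes that carry the ISRE motif in their promoters. IFIT proteins bind foreign RNA, in particular RNA whose 5′ end lacks the cap marks of the host's own messages, and block its translation. OAS enzymes sense double-stranded RNA and make 2-5A, a small oligonucleotide that sets off the decay of RNA in the cell. The OASL proteins are related to OAS enzymes. Oasl1 of the mouse makes no 2-5A and restrains translation of Irf7, whereas mouse Oasl2 is an active enzyme.

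The genes lie in 3 clusters of the GRCm38 genome, all annotated as protein coding. The Ifit genes span 99.3 kb of chromosome 19, at chr19:34550694-34650009, in the order Ifit2, Ifit3, Ifit3b and Ifit1, with Ifit1bl1 and Ifit1bl2 between them. Oas2, Oas3 and Oas1a lie within 177 kb at chr5:120730333-120907521, together with Oas1 copies such as Oas1c and Oas1g. Oasl2 and Oasl1 are neighbours within 41.0 kb at chr5:114896936-114937915. Near-identical copies matter for counting: Ifit3 and Ifit3b transcripts matched at 98.0% of aligned bases, and Oas1a and Oas1g at 97.5%. Of the 90-base windows in the last 500 bases of the longest transcript, 6.57% of those of Ifit3 also occur in Ifit3b and 42.3% of those of Oas1a in Oas1g. For the other 7 genes no such window was shared with another gene, so the split of Ifit3 from Ifit3b is slightly uncertain and that of Oas1a from Oas1g more so.

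Promoters from RefSeq (GRCm38.p6, 250 bases before to 50 after each start) were found for 8 of the 9 genes. Oas2 had no entry. The ISRE core GAAA NN GAAA (written without gaps, N for any base), searched on both strands as this motif and as TTTC NN TTTC, occurred in 5 of these 8 genes, against 3.99% of all 27025 genes with a promoter. The windows are shown because they are the shared sequence feature of the family members with such a match, each on the gene's own strand with the matches in capitals. The 2 overlapping matches of Oas1a form 1 run.
Ifit1, chr19:34640770-34640828, plus strand: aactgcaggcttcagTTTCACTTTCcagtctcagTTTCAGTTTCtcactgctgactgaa
Ifit3, chr19:34583358-34583431, plus strand: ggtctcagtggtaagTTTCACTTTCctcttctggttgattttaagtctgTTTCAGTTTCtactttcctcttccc
Ifit3b, chr19:34607754-34607827, plus strand: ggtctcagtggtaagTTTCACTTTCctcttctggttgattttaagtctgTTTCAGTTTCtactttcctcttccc
Oas3, chr5:120777710-120777749, minus strand: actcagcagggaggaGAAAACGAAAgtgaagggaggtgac
Oas1a, chr5:120907526-120907560, minus strand: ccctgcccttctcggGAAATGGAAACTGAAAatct

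The Ifit3 and Ifit3b windows are the same 74 letters, and the 2 matches in each sit in the same spacing. Ifit1, Ifit3 and Ifit3b each hold 2 matches on the reverse strand, whereas the matches of Oas3 and Oas1a lie on the forward strand, closer to the start. In Oas1a the matches begin 20 and 14 bases before the start, and in Ifit1 they begin 104 and 85 bases before it. Ifit2, Oasl1 and Oasl2 hold no such match in these windows, although they differed between the libraries as described below. The STAT core TTC NNN GAA, which reads the same on both strands, occurred in 2 of the 8 genes (Ifit2 and Oas1a) and in 9.55% of all genes. These letters describe the windows and do not show binding.

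The allogeneic library held 3500 barcodes and 8415043 UMIs, and the syngeneic library held 7967 barcodes and 46486632 UMIs. The lists start at 150 UMIs per barcode in the allogeneic library and at 3447 in the syngeneic library. Barcodes with 200 or more genes and no more than 10% mitochondrial UMIs were kept, and these cells numbered 2106 (allogeneic, median 3147 UMIs) and 7957 (syngeneic, median 4917 UMIs). Haemoglobin genes took 9.11% of the kept allogeneic UMIs and 0.114% of the kept syngeneic UMIs, and 66 barcodes occur in both libraries. Levels are given as CPM, counts per 1000000 UMIs of a cell type summed over its cells. Cell types were gated on marker UMIs: CD4 T (252 allogeneic and 871 syngeneic cells), CD8 T (451 and 1980), Foxp3+ T (85 and 114) and B cells (229 and 433). Lck, a T cell kinase, stood at 420 to 523 CPM in the 3 allogeneic T gates and 623 to 681 CPM in the syngeneic ones, against 35.2 and 147 CPM in the B gates, and Cd79b, Cd74 and Cd22 summed to 24178 and 25380 CPM in B cells and to at most 663 CPM in any T gate. Only 8 plasmacytoid dendritic cells (pDCs), all syngeneic, and 22 barcodes with macrophage C1q genes, all allogeneic, passed their gates.

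A 3′ tag counts a molecule once whatever its length, so genes were compared without a length correction. Intervals are exact 95% Poisson or Clopper-Pearson intervals and cover counting error only. A gene was called different where its CPM differed at least 2-fold and it had at least 20 UMIs over both libraries. A ratio is allogeneic over syngeneic.

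In every gated lymphocyte type the summed level of the 9 genes was higher in the allogeneic library, with the largest ratio in B cells. In CD4 T cells the sum was 703 CPM (650 to 760) in the allogeneic library and 119 CPM (109 to 130) in the syngeneic library, 5.89-fold. CD8 T cells had 1005 CPM (961 to 1050) and 132 CPM (126 to 139), 7.60-fold. Foxp3+ T cells, which hold the regulatory T cells, had 638 CPM (552 to 735) and 119 CPM (93.8 to 149). This ratio of 5.37 (4.10 to 7.09) has an interval that includes the 5.89 of CD4 T cells. In the allogeneic library CD8 T cells thus lay above CD4 T cells, at 1.43-fold (1.31 to 1.565), and Foxp3+ T cells lay near CD4 T cells. In the syngeneic library the intervals of the 3 T cell types overlapped, with CD8 T cells at 1.11-fold (1.001 to 1.23) of CD4 T cells. B cells had 1017 CPM (936 to 1104) in the allogeneic library and 42.9 CPM (34.6 to 52.6) in the syngeneic library, 23.7-fold (19.0 to 29.9). B cells ranked level with CD8 T cells in the allogeneic library (log2 ratio 0.02 with an interval of -0.12 to 0.15) and lowest of the 4 types in the syngeneic library (0.359-fold of CD4 T cells, log2 ratio -1.48 with an interval of -1.81 to -1.15). In the subset of cells with at least 3447 UMIs, the depth at which the syngeneic list starts, the log2 ratio in B cells was 3.63, from 19 allogeneic and 433 syngeneic cells, against 4.57 over all gated B cells. Without the 66 barcodes found in both libraries, an alternative chosen after seeing the data, the log2 ratios were 2.55 in CD4 T, 2.91 in CD8 T, 2.42 in Foxp3+ T and 4.56 in B cells.

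Counted gene by gene, 6 of the 7 genes with enough UMIs in CD4 T cells were at least 2-fold higher in the allogeneic library, where 9.33% of all 8997 genes with enough UMIs were. In CD8 T cells all 8 such genes were, against 8.11% of all genes. In Foxp3+ T cells 3 of 3 were, against 9.99%, and in B cells 6 of 6, against 9.37%. Over all kept cells the count was 8 of 8, against 10.5%. None of the 9 was at least 2-fold lower in any of these, where 5.80% (CD4 T), 6.00% (CD8 T), 6.54% (Foxp3+ T), 10.8% (B) and 7.70% (all kept cells) of all genes were. The median log2 ratio of the genes with enough UMIs was 2.43 in CD4 T, 2.48 in CD8 T, 2.56 in Foxp3+ T and 4.50 in B cells, and that of all genes was 0.06, 0.01, 0.06 and -0.03. Of the genes with enough UMIs, 2 of 7 in CD4 T, 2 of 8 in CD8 T, 2 of 3 in Foxp3+ T and 4 of 6 in B cells had fewer than 20 UMIs in the syngeneic library. Such genes enter the count through their allogeneic UMIs, so the counts and medians describe the genes that passed and support no direction.

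**Figure D1:**
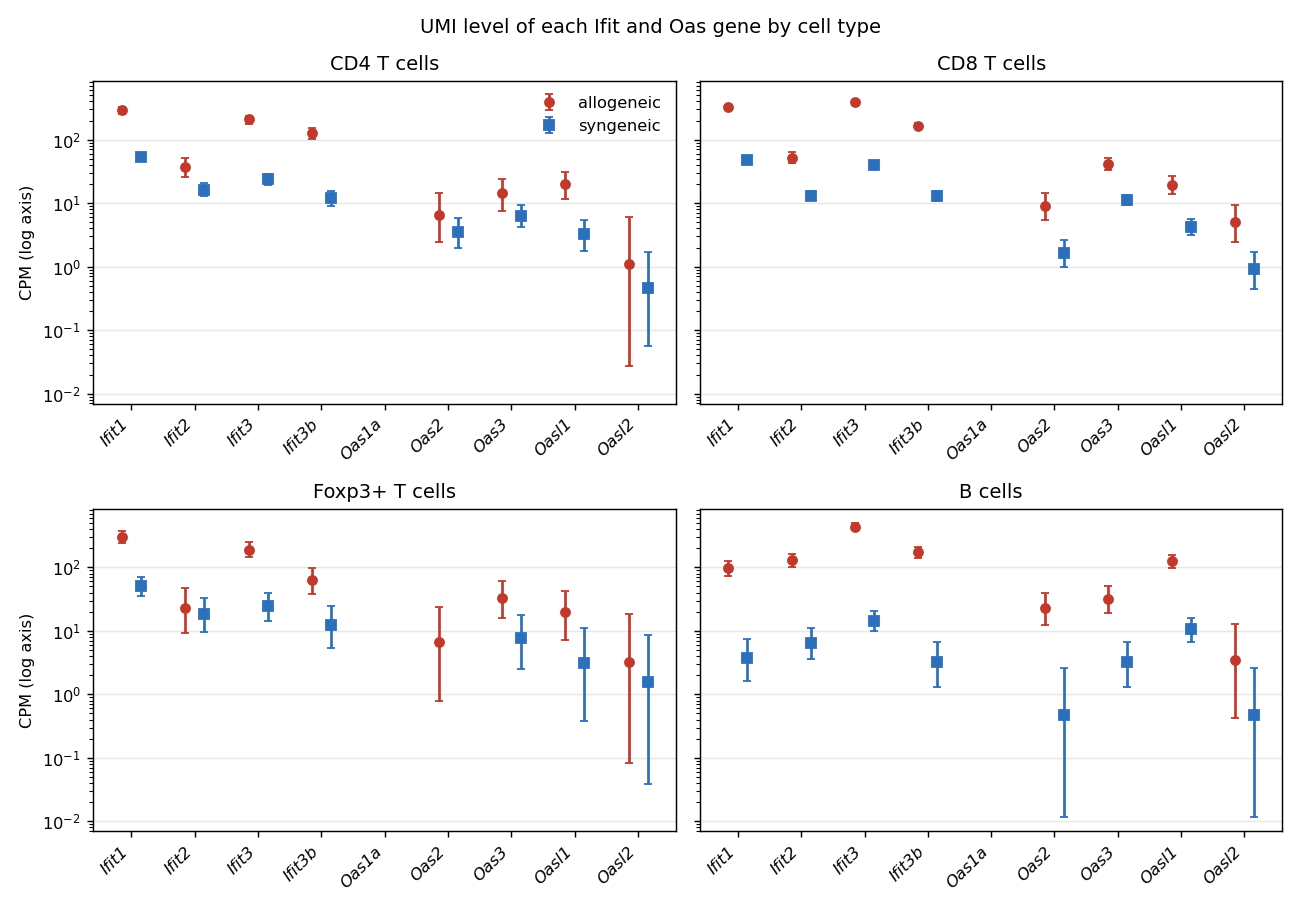
Level of each of the 9 genes in CPM on a log axis, in CD4 T, CD8 T, Foxp3+ T and B cells, with allogeneic values as red circles left of syngeneic values as blue squares and exact 95% Poisson intervals as bars. Genes with 0 UMIs, such as Oas1a in both libraries, have no point, and the allogeneic Ifit1 point stands at 290 CPM in CD4 T cells and at 96.8 CPM in B cells.

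Ifit3 and its near copy Ifit3b, whose human counterpart binds and stabilises IFIT1, had the widest gaps of the Ifit genes in CD4 T, CD8 T and B cells. Ifit3 stood at 208 CPM (allogeneic) and 23.7 CPM (syngeneic) in CD4 T cells, at 389 and 40.5 CPM in CD8 T cells, at 191 and 24.7 CPM in Foxp3+ T cells, and at 435 and 14.5 CPM in B cells. These are ratios of 8.80, 9.60, 7.73 and 30.1. Ifit3b followed Ifit3 at a lower level, with 126 and 11.9 CPM in CD4 T cells, 164 and 13.0 CPM in CD8 T cells, and 174 and 3.26 CPM in B cells. Its ratio in B cells was 53.4 (25.0 to 136), from 99 allogeneic and 7 syngeneic UMIs. In Foxp3+ T cells Ifit3b had 62.5 CPM (19 UMIs) and 12.3 CPM (8 UMIs).

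Ifit1, the family's cap-sensing RNA binder, was the highest of the 9 genes in syngeneic T cells of all 3 types. It stood at 290 CPM (allogeneic) and 53.9 CPM (syngeneic) in CD4 T cells, 326 and 47.6 CPM in CD8 T cells, and 299 and 50.9 CPM in Foxp3+ T cells, ratios of 5.39, 6.84 and 5.88. In B cells it was scarce in both libraries, with 96.8 CPM (55 UMIs) and 3.73 CPM (8 UMIs), a ratio of 26.0 (12.3 to 63.1). That ratio depended on the gate: with barcodes given to the lineage with the larger marker sum, a choice made after seeing the data that takes in 335 allogeneic and 1370 syngeneic B cells, Ifit1 stood at 85.4 CPM (75 UMIs) and 11.7 CPM (99 UMIs), a log2 ratio of 2.87 against 4.70. With that gate its log2 ratio was 2.65 in CD4 T and 2.80 in CD8 T cells. Ifit2, an RNA binder known to promote apoptosis, showed the smallest gap of the Ifit genes in the 3 T cell types. It stood at 37.2 and 16.4 CPM in CD4 T cells, 52.0 and 13.1 CPM in CD8 T cells and 128 and 6.53 CPM in B cells. Its log2 ratio in B cells was 4.30 (3.46 to 5.24), below the 4.70 (3.62 to 5.98) of Ifit1 but with overlapping intervals. That order reversed with the gate. By the larger marker sum Ifit2 stood at 126 CPM (111 UMIs) and 7.07 CPM (60 UMIs) in B cells. This was a wider gap than that of Ifit1 with the same gate. In Foxp3+ T cells Ifit2 had 23.0 CPM (7 UMIs) and 18.5 CPM (12 UMIs), a log2 ratio of 0.31 whose interval of -1.27 to 1.78 includes 0.

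The Oas genes summed to a lower level than the Ifit genes in all 4 types of both libraries, and their sum differed less between the libraries in CD4 T, CD8 T and B cells. In the 3 T cell types each Oas gene was below Ifit1 and Ifit3, whereas in B cells Oasl1 was above Ifit1 in both libraries and also above Ifit2 and Ifit3b in the syngeneic library. The syngeneic order of Oasl1 over Ifit1 rests on 23 and 8 UMIs and depended on the gate. By the larger marker sum Oasl1 stood at 10.1 CPM (86 UMIs) and Ifit1 at 11.7 CPM (99 UMIs) in syngeneic B cells. The summed Oas genes had a ratio of 3.06 in CD4 T cells against 6.25 for the summed Ifit genes, 4.18 (3.35 to 5.19) against 8.14 (7.57 to 8.75) in CD8 T cells and 12.3 (8.19 to 18.9) against 29.8 (22.8 to 39.7) in B cells. In Foxp3+ T cells, with 19 allogeneic and 8 syngeneic Oas UMIs, the ratios were 5.06 (2.12 to 13.4) and 5.41. Oas3, the family member that senses long double-stranded RNA, was the highest Oas gene in CD8 T cells, at 41.8 CPM (allogeneic) and 11.2 CPM (syngeneic). It stood at 14.2 and 6.32 CPM in CD4 T cells and at 31.7 and 3.26 CPM in B cells. Oas2, a 2-5A synthetase as well, was rare: 9.17 CPM (18 UMIs) and 1.64 CPM (18 UMIs) in CD8 T cells, and 22.9 CPM (13 UMIs) and 0.466 CPM (1 UMI) in B cells, a ratio of 49.1 with an interval of 7.37 to 2086. In CD4 T cells Oas2 missed the 2-fold mark, at 6.57 CPM (6 UMIs) and 3.51 CPM (15 UMIs), a log2 ratio of 0.90 with an interval of -0.75 to 2.35.

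Oasl1 was the leading Oas gene of B cells, at 125 CPM in the allogeneic library and 10.7 CPM in the syngeneic library, 11.7-fold (7.19 to 19.5). In T cells it was far lower, at 19.7 and 3.28 CPM in CD4 T cells and at 19.4 and 4.29 CPM in CD8 T cells. The CD8 T cell log2 ratio of 2.18 fell under the 2-fold mark, to 0.84, when free RNA was subtracted with erythroid barcodes left out of the estimate, as described below. Oasl2 had only 22 allogeneic and 44 syngeneic UMIs over all kept cells. It reached the minimum of UMIs in CD8 T cells alone among the 4 types, at 5.09 and 0.912 CPM with 10 UMIs in each library.

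Oas1a had 0 UMIs in both libraries. By the floor of 3 UMIs this allows up to 0.391 CPM over the kept allogeneic cells and 0.0646 CPM over the kept syngeneic cells. By the exact interval it allows up to 0.480 and 0.0794 CPM. Its near copy Oas1g was also at 0, and whether their shared sequence had a part in this was not tested. Of the other Oas1 copies, Oas1c had 13.4 CPM (allogeneic) and 6.07 CPM (syngeneic) over all kept cells, and Oas1e had 0 and 3 UMIs. Ifit1bl1, which lies between Ifit3 and Ifit3b, had 23.8 and 22.9 CPM over all kept cells, whose mix of types differs between the libraries. Within types it had 24.1 CPM (allogeneic) and 26.2 CPM (syngeneic) in CD4 T cells, a log2 ratio of -0.12 (-0.85 to 0.55), 43.8 and 31.0 CPM in CD8 T cells, 0.50 (0.14 to 0.84), and 26.4 CPM (15 UMIs) and 8.86 CPM (19 UMIs) in B cells, 1.58 (0.50 to 2.63).

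**Figure D2:**
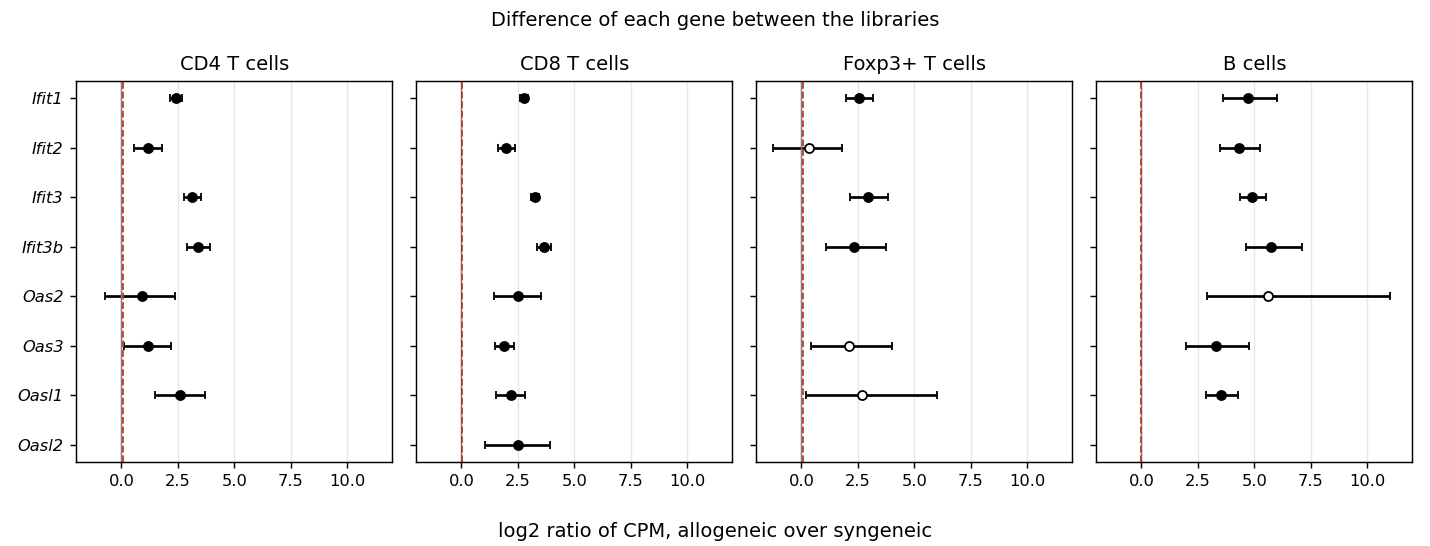
Log2 ratio of CPM, allogeneic over syngeneic, for 8 genes in CD4 T, CD8 T, Foxp3+ T and B cells, with exact 95% intervals as bars, a grey line at 0 and a red dashed line at the median of all genes. Filled points have at least 20 UMIs over both libraries and open points fewer, and Ifit3b in B cells stands at 5.74.

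Ifit1 made up less of the family in B cells than in CD4 T cells and Oasl1 more, in both libraries. In B cells Ifit1 held 9.52% (7.25 to 12.2%) of the UMIs of the 9 genes in the allogeneic library and 8.70% (3.83 to 16.4%) in the syngeneic library. In CD4 T cells it held 41.3% (37.4 to 45.2%) in the allogeneic library and 45.1% (40.7 to 49.5%) in the syngeneic library, so neither B cell interval reached either CD4 T cell interval. The syngeneic B cell share rests on 8 of 92 UMIs and moved with the gate: by the larger marker sum Ifit1 held 8.93% (7.09 to 11.1%) of the family in allogeneic and 23.7% (19.7 to 28.1%) in syngeneic B cells, against 42.2% (38.6 to 45.8%) and 42.5% (39.0 to 45.9%) in CD4 T cells. Oasl1 went the other way, with 12.3% (9.72 to 15.2%) of the family's UMIs in allogeneic B cells and 25.0% (16.6 to 35.1%) in syngeneic B cells, against 2.80% and 2.75% in CD4 T cells. Set as levels within a library, Ifit1 in B cells relative to CD4 T cells was 0.334-fold (0.245 to 0.447) in the allogeneic library. It was 0.0692-fold (0.0295 to 0.139) in the syngeneic library, from 8 B cell UMIs, and this value too moved with the gate. By the larger marker sum Ifit1 stood at 11.7 CPM in syngeneic B and 44.2 CPM in syngeneic CD4 T cells. The allogeneic levels with that gate were 85.4 and 277 CPM. Oasl1 was 6.34-fold (allogeneic) and 3.27-fold (syngeneic) in B cells relative to CD4 T cells. Ifit2 had no such common order: B cells had 3.45-fold the level of CD4 T cells in the allogeneic library and 0.398-fold in the syngeneic library.

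Among T cells, Ifit3 and Oas3 were the genes that set CD8 T cells above CD4 T cells in both libraries. Ifit3 was 1.87-fold (allogeneic) and 1.71-fold (syngeneic) higher in CD8 T cells, and Oas3 2.93-fold and 1.77-fold higher, with all 4 intervals of the log2 ratio above 0. Ifit1 did not differ beyond counting error between these types, at log2 ratios of 0.17 (-0.04 to 0.38) and -0.18 (-0.40 to 0.05). Foxp3+ and CD4 T cells lay side by side for the summed genes, at log2 ratios of -0.14 (-0.38 to 0.09) in the allogeneic library and -0.01 (-0.37 to 0.34) in the syngeneic library. Ifit2 took a smaller and Ifit3b a larger share of the family in the allogeneic CD4 T and CD8 T cells. In CD8 T cells Ifit2 held 5.17% (allogeneic) and 9.92% (syngeneic) and Ifit3b 16.3% and 9.86%. In CD4 T cells Ifit2 held 5.30% and 13.7% and Ifit3b 17.9% and 10%.

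**Figure D3:**
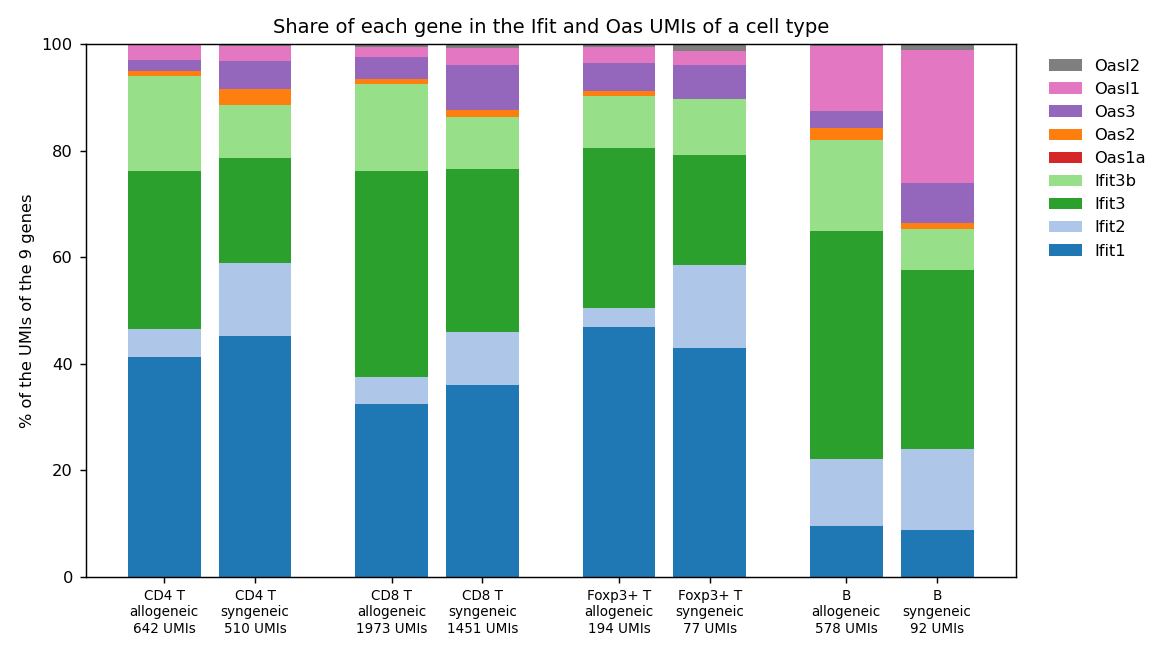
Share of each gene, in percent, of the UMIs of the 9 genes, stacked from 0 to 100% for each cell type with the allogeneic bar left of the syngeneic bar and the summed UMIs under each. Ifit1, at the bottom, holds 9.52% and 8.70% in B cells and 41.3% and 45.1% in CD4 T cells (allogeneic and then syngeneic), and Oasl1, near the top, is widest in B cells.

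The same contrast was seen per cell. With each cell thinned to 1000 UMIs, 42.0% (35.7 to 48.6%) of allogeneic CD4 T cells and 9.53% (7.66 to 11.7%) of syngeneic CD4 T cells held at least 1 UMI of the 9 genes. The shares were 54.7% (49.9 to 59.5%) and 10.96% (9.62 to 12.4%) of CD8 T cells, 42.4% (31.7 to 53.6%) and 12.3% (6.88 to 19.7%) of Foxp3+ T cells, and 54.8% (48.0 to 61.6%) and 2.54% (1.27 to 4.50%) of B cells. Thinning left out 14 CD4 T, 18 CD8 T and 12 B cells of the allogeneic library that held fewer UMIs, and no other cell of these 4 types. Without thinning, the shares were 72.2% and 30.2% of CD4 T cells, 84.3% and 33.3% of CD8 T cells, 61.2% and 36.0% of Foxp3+ T cells, and 73.4% and 12.5% of B cells. Median depths were 3254.5 UMIs (allogeneic) and 4423 UMIs (syngeneic) in CD4 T, 4047 and 5137 in CD8 T, 3165 and 4675 in Foxp3+ T, and 2240 and 4163 in B cells, so the higher shares were those of the shallower cells.

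Red cell barcodes, which should lack these genes, served to read the background of free RNA in the droplets. Of 72 allogeneic erythroid barcodes, 2.78% (0.338 to 9.68%) held a UMI of the 9 genes after thinning to 1000 UMIs and 23.6% (14.4 to 35.1%) at their full median depth of 9769 UMIs. The 6 syngeneic ones, with a median depth of 8108.5 UMIs, held 0, which by a floor of 3 counts allows up to 50% of them. Haemoglobin fills most of such a barcode, at 92.9% of UMIs in the allogeneic ones, which leaves few UMIs for other RNA. Of their other UMIs the 9 genes made up 632 CPM, and of those of the 1071 allogeneic barcodes with under 200 genes 787 CPM, near the 809 CPM of all kept allogeneic cells on the same scale. No such barcodes are in the syngeneic list, and the part of free RNA in the allogeneic levels could be estimated only. With free RNA subtracted by its haemoglobin content, an estimate of 1.995% (CD4 T) to 4.67% (B) of UMIs, the log2 ratios of the summed genes were 2.57 in CD4 T, 2.97 in CD8 T, 2.46 in Foxp3+ T and 4.61 in B cells. With erythroid barcodes left out of that estimate, a choice made after seeing the data, it came to 26.6% (CD4 T) to 62.3% (B) of UMIs and the log2 ratios were 2.45, 3.01, 2.01 and 4.60. Ifit1 held 17.0% (11.4 to 23.9%) of the family's UMIs in the low barcodes and 21.9% (9.28 to 40.0%) in the erythroid ones. Ifit3 held 52.9% (44.7 to 61.1%) and 25% (11.46 to 43.4%). The erythroid intervals, from 32 UMIs, include the 32.4% of Ifit1 and the 38.7% of Ifit3 in allogeneic CD8 T cells. The intervals of the low barcodes, from 153 UMIs, include neither.

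Cells in which several of the genes were seen made up a larger share of the allogeneic than of the syngeneic library in all 4 types. At 1000 UMIs per cell, 16.0% (11.6 to 21.3%) of allogeneic and 1.38% (0.714 to 2.39%) of syngeneic CD4 T cells held 2 or more of the 9 genes, and 21.9% and 1.26% of CD8 T cells did. In B cells the share was 27.6% (21.8 to 34.1%) in the allogeneic library, and 0 of 433 syngeneic cells did, which allows up to 0.693% by the floor of 3 counts and 0.848% by the exact interval. Foxp3+ T cells had 7.06% (2.63 to 14.7%) and 0 of 114, which allows up to 2.63% by the floor and 3.18% by the exact interval, so these exact intervals overlap. The highest thinned count in 1 cell was 9 UMIs among allogeneic and 5 UMIs among syngeneic CD8 T cells.

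**Figure D4:**
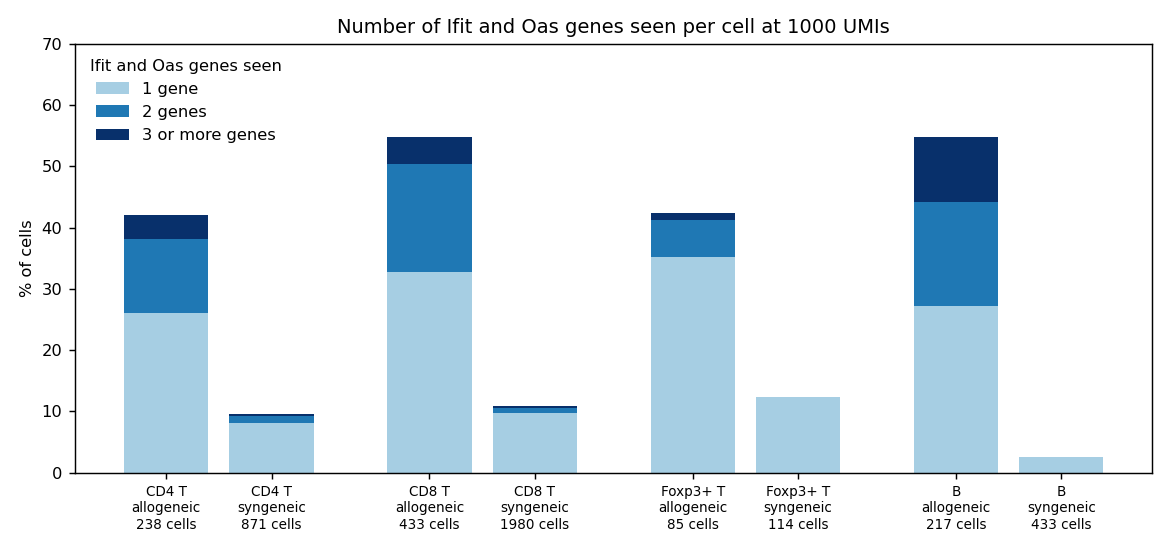
Percent of cells with 1, 2 or at least 3 of the 9 genes seen after thinning each cell to 1000 UMIs, stacked, with the allogeneic bar left of the syngeneic bar for each cell type and the number of cells under each. Bars reach 54.8% of allogeneic and 2.54% of syngeneic B cells, and the darker segments for 2 or more genes are visible mainly in the allogeneic bars.

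The UMIs of the family were spread unevenly over CD4 T and CD8 T cells in both libraries and over allogeneic B cells. The variance of the thinned count over its mean, which is 1 for counts scattered evenly, was 1.70 (allogeneic) and 1.61 (syngeneic) for CD4 T, 1.62 and 1.59 for CD8 T, 1.39 and 1.25 for Foxp3+ T, and 1.76 and 1.28 for B cells. These values have no interval, and the syngeneic Foxp3+ T and B values rest on only 16 and 13 thinned UMIs. Thinned to 2000 UMIs, the tenth of cells with the most held 39.3% of the family's UMIs in allogeneic and 73.1% in syngeneic CD4 T cells, and 33.7% and 73.1% in CD8 T cells. A lower mean by itself puts UMIs into fewer cells, so these top shares do not rank the libraries by unevenness.

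Whether Ifit3 and the other genes were seen in the same cells was read at 1000 UMIs per cell, for Ifit1, Ifit2, Ifit3b, Oas3 and Oasl1 in the 4 types. In the allogeneic library the partner was seen more often in cells with Ifit3 than in cells without it in 16 of 20 pairs and less often in 4. In the syngeneic library it was more often in 9 of 20, less often in 8 and equal in 3. All syngeneic pairs that were higher lay in CD4 T and CD8 T cells. Only 3 syngeneic Foxp3+ T cells and 5 syngeneic B cells held Ifit3, and no partner was seen in them. These counts of pairs therefore do not rank the libraries. The exact intervals were apart in 1 allogeneic and 2 syngeneic pairs, each time higher with Ifit3, and overlapped in the others. The allogeneic pair was Ifit3b in B cells, seen in 32.4% (21.8 to 44.5%) of cells with Ifit3 and 10.96% (6.40 to 17.2%) of those without. The syngeneic pairs were both in CD8 T cells: Ifit1 was seen in 20.5% (12.2 to 31.2%) of 78 cells with Ifit3 and 3.31% (2.55 to 4.22%) of 1902 cells without it, and Ifit3b in 6.41% (2.11 to 14.3%) and 1.21% (0.768 to 1.81%). Ifit3 and Ifit3b are near copies whose split in counting is slightly uncertain, and the part of this in their pairing was not tested. In allogeneic CD8 T cells Ifit1 was seen in 32.8% (24.8 to 41.7%) of cells with Ifit3 and 22.6% (18.0 to 27.7%) of those without it, and in Foxp3+ T cells in 14.3% (1.78 to 42.8%) and 22.5% (13.5 to 34.0%). Oasl1 in allogeneic B cells was seen in 12.7% (5.96 to 22.7%) of cells with Ifit3 and 15.1% (9.69 to 21.9%) of those without.

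The genes whose thinned counts followed the summed family most closely over cells were weakly related to it. Of the 10 leading genes in CD4 T cells of each library, 4 were in both lists, the lymphocyte surface gene Ms4a4b and the interferon-induced genes Ifi203, Ifi27l2a and Mndal. In CD8 T cells 4 of 10 were in both, Isg15, Ly6a, Ifi203 and Zbp1. Pearson's r of log counts was 0.30 at most (Ly6a over 238 allogeneic CD4 T cells) and 0.26 for Isg15 over the 1980 syngeneic CD8 T cells. Cells of 1 library share its depth and free RNA, and correlations this weak in sparse counts are given as a description.

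Other genes of the interferon pathway were read beside the family in the order of the pathway. Of 21 interferon genes listed, only Ifng reached 20 UMIs over all kept cells, with 7 UMIs (0.912 CPM) in the allogeneic library and 50 UMIs (1.08 CPM) in the syngeneic library. The listed type I genes were at 0 in the allogeneic library, below its floor of 0.391 CPM. Of 7 receptor and signalling genes, 1 was at least 2-fold higher in each of CD4 T and CD8 T cells, 1 of 6 in Foxp3+ T cells and 3 of 7 in B cells, with 1 of 7, Tyk2 (3 allogeneic and 32 syngeneic UMIs, named after its values were seen), at least 2-fold lower in B cells. Of all genes, 9.33% (CD4 T), 8.11% (CD8 T), 9.99% (Foxp3+ T) and 9.37% (B) were higher, and 10.8% were lower in B cells. A count of 1 in so short a list is thus no result about the list. The same shares stand beside the lists below. The receptor chain gene Ifnar1 had 87.6 CPM (allogeneic) and 56.9 CPM (syngeneic) in CD4 T cells and 58.1 and 62.5 CPM in B cells. Jak1, a kinase of that receptor, had 434 and 429 CPM in CD8 T cells.

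Stat2, a STAT protein of the type I interferon response and the 1 gene of the group called in all 4 types, was named after its values were seen and had 51.5 and 18.7 CPM in CD4 T cells and 65.1 and 28.9 CPM in B cells. Irf9, the DNA-binding partner of Stat2 at the ISRE, had ratios of 1.69 in CD4 T, 1.82 in CD8 T, 1.58 in Foxp3+ T and 2.46 in B cells.

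Of 8 regulator genes, 4 were at least 2-fold higher among CD4 T cells, 3 among CD8 T cells, 3 of 7 among Foxp3+ T cells and 5 among B cells. Irf7, the factor that amplifies type I interferon production, had 297 CPM (allogeneic) and 83.1 CPM (syngeneic) in CD4 T cells, 288 and 72.1 CPM in CD8 T cells, 230 and 41.7 CPM in Foxp3+ T cells, and 517 and 73.2 CPM in B cells. Its ratio was therefore largest in B cells, at 7.07, as for the Ifit and Oas sum. Irf1 was at 108 and 117 CPM in CD4 T cells and 137 and 56.9 CPM in B cells, and Irf3 was not called in any type. Usp18, which shuts off the type I receptor, and Socs3, an inhibitor of JAK signalling, were called in all 4 types and named after their values were seen. Usp18 had 145 and 42.6 CPM in CD4 T cells and 123 and 20.1 CPM in B cells, and Socs3 had 278 and 49.7 CPM and 86.2 and 4.196 CPM there. Irf8, a factor of B and dendritic cells, was the 1 regulator at least 2-fold lower, at 12.05 and 60.9 CPM in CD4 T cells and 15.8 and 44.4 CPM in CD8 T cells.

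Of the RNA and DNA sensors, 3 of 7 were called higher in CD4 T, 4 of 7 in CD8 T, 3 of 4 in Foxp3+ T and 3 of 5 in B cells, led in level by Ddx58 (the RNA sensor RIG-I) at 100 and 44.1 CPM in CD8 T cells, while Tmem173 (the adaptor STING) had 51.5 and 45.6 CPM there. Dhx58, a relative of Ddx58, had 59.6 and 11.8 CPM in CD8 T cells, and Ifih1 (the RNA sensor MDA5) 59.1 and 18.1 CPM.

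Other interferon-induced effectors were called higher for 11 of 16 genes in CD4 T cells, 16 of 16 in CD8 T, 11 of 13 in Foxp3+ T and 14 of 15 in B cells. Their median log2 ratios were 1.48, 1.66, 1.17 and 1.86. These are not ranked against the Ifit and Oas medians given above, because genes of either list could pass the minimum through their allogeneic UMIs. Isg15, a ubiquitin-like modifier, had 265 CPM (allogeneic) and 85.3 CPM (syngeneic) in CD4 T cells and 130 and 42.4 CPM in B cells. Zbp1, a nucleic acid sensor, had 304 and 99.7 CPM in CD8 T cells and 245 and 38.2 CPM in B cells. Bst2, which tethers budding virus, had 205 and 141 CPM in CD4 T cells and 197 and 177 CPM in B cells, so it was an effector with nearly the same level in both libraries' B cells. Samd9l, an antiviral factor, had 414 and 159 CPM in B cells.

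**Figure D5:**
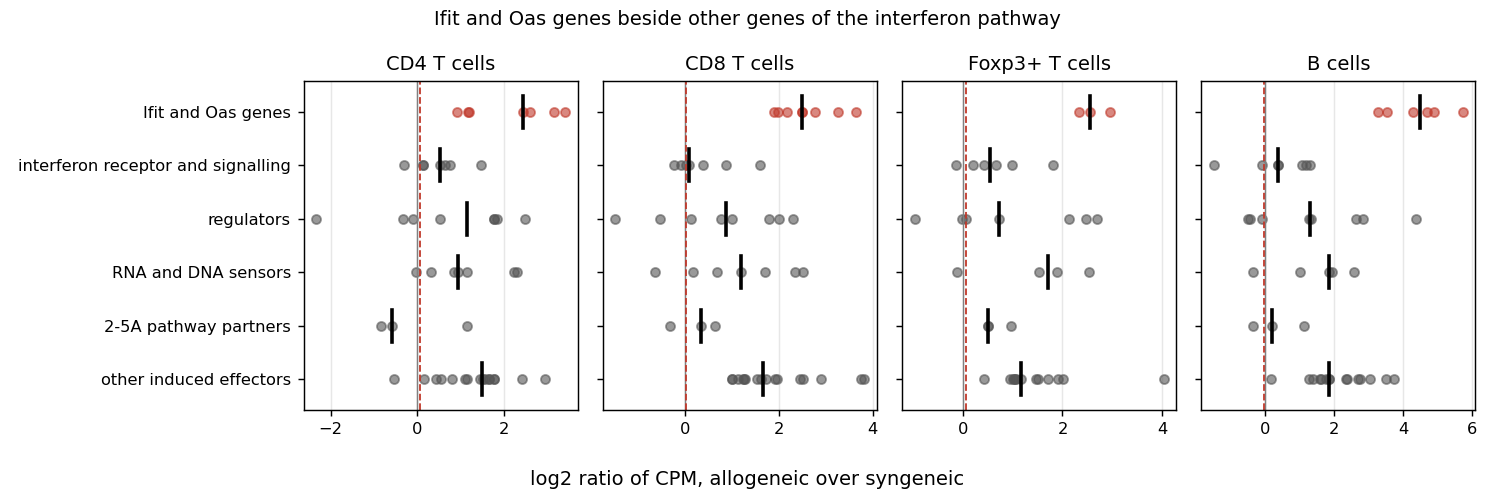
Log2 ratio of CPM, allogeneic over syngeneic, of each gene with at least 20 UMIs (points) and the median of each list (black bars) in CD4 T, CD8 T, Foxp3+ T and B cells. The red dashed line is the median of all genes, and the Ifit and Oas genes in the top row have medians of 2.43, 2.48, 2.56 and 4.50.

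pDCs, known as the main producers of type I interferon, and macrophages could not be compared between the libraries. By a wider gate, in which a barcode goes to the lineage with the larger marker sum (chosen after seeing the data), no allogeneic and 76 syngeneic barcodes were pDCs. In those 76 cells Oasl2 and Oasl1 led the family, at 30.0 CPM (18 UMIs) and 28.3 CPM (17 UMIs), and Ifit1 and Ifit3 each had 8.32 CPM (5 UMIs). The OASL genes thus held most of the 49 family UMIs of syngeneic pDCs, whereas Ifit1 and Ifit3 led in syngeneic T cells. The 22 allogeneic barcodes with C1q genes had a median of 497.5 UMIs, and Ifit3 made up 14 of their 23 family UMIs, with Ifit1 at 0 (floor 247 CPM).

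Neutrophil genes (S100a8, S100a9 and Retnlg, 3 of 3 seen) were also higher in the allogeneic gates, at 12256 and 89.2 CPM in CD4 T, 7763 and 5.20 CPM in CD8 T, 1040 and 7.72 CPM in Foxp3+ T and 1172 and 131 CPM in B cells. Barcodes in which they took over 1% of UMIs held 4 of the 642 family UMIs of allogeneic CD4 T cells, 3 of the 1973 of CD8 T cells and 0 of the 578 of B cells. Summed genes of NK cells were between 0 and 2.19 CPM in the allogeneic and between 0.466 and 11.1 CPM in the syngeneic gates. In the allogeneic gates and then the syngeneic gates, summed monocyte genes ran from 77.4 to 804 CPM and from 179 to 866 CPM, dendritic cell genes from 280 to 493 CPM and from 113 to 355 CPM, and plasma cell genes from 40.8 to 135 CPM and from 34.0 to 251 CPM. The part of these cell types in the differences was not tested.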

How the data were processed

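Immune cells from lymph nodes were measured in 2 libraries, 1 per group, with a Chromium single-cell 3′ v3 kit, per the labels. Deposited values are raw UMI counts for every gene and barcode. The submitters' processing notes list mm10, Seurat 2.3.4, STAR and Cell Ranger 2.2.0 without roles. The choice of barcodes and the use of strand in counting are not given in the sources used here. The 9 genes, the pathway lists and the gates were chosen with earlier results of these data known.

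Barcodes with 200 or more genes and no more than 10% mitochondrial UMIs were kept. CD4 T, CD8 T and Foxp3+ T gates needed 1 UMI of Cd3d, Cd3e or Cd3g and 1 of Cd4, of Cd8a or Cd8b1, or of Foxp3, and no UMI of 3 B cell markers (Cd79a, Ms4a1 and 1 more). CD4 T and CD8 T cells had neither the other marker nor Foxp3, and Foxp3+ T cells no Cd8a or Cd8b1. B cells needed 2 UMIs of those 3 markers and no Cd3 UMI. pDCs (Siglech, Ccr9, Cox6a2, Klk1, Cd209d, with Siglech seen) and macrophages (C1qa, C1qb, C1qc) needed 3 UMIs and no T or B marker, and erythroid barcodes 50% haemoglobin. Gates that exclude mixed T and B barcodes were the treatment of doublets, and an alternative left out the 5% of cells with the most UMIs. UMIs were summed per class. Symbols with several entries were summed. Exact Poisson, conditional binomial (for ratios) and Clopper-Pearson 95% intervals cover counting error only. A floor is 3 UMIs over a class. Cells were thinned at random to 1000 UMIs (seed 11).

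With 1 library per group no test was made. All 9 genes were named. Of each pathway list the 4 genes with the most UMIs were named, plus Irf7 and Isg15 and 2 more genes. Some genes are not reported here. The genes most like the family were the 10 with the highest Pearson r over cells among those with at least 100 thinned UMIs. Calculations used Python 3.11.15, numpy 2.4.6, scipy 1.17.1, pandas 2.3.3 and matplotlib 3.10.9, tested on simulated data. Annotation was GENCODE M21 and RefSeq promoters.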

Additional observations from a re-analysis of the deposited data

How the results depend on the processing

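No ratio of a single gene reversed under any alternative run (361 within and 46 beyond the main interval). The summed log2 ratio also kept its sign, with 52 values within and 17 beyond the main interval. It ran from 2.34 to 3.12 in CD4 T, 2.87 to 3.57 in CD8 T, 2.01 to 2.70 in Foxp3+ T, 3.63 to 5.75 in B and 2.67 to 3.41 over all kept cells. Over all kept cells it was 3.01 with a filter of 500 genes and 5% mitochondrial UMIs, 2.67 in cells of at least 3447 UMIs, 3.03 thinned to 1000 UMIs, 3.41 without the 5% of cells with the most family UMIs, 3.01 without the 5% with the most UMIs, 3.02 without haemoglobin UMIs, 3.02 with free RNA subtracted and 3.002 with equal weight per cell. It was 2.99 without barcodes over 1% neutrophil UMIs, chosen after seeing the data. In cells of at least 3447 UMIs the CD4 T value was 2.34 and the B value 3.63. Without the cells with the most family UMIs the values were 3.12 (CD4 T), 3.57 (CD8 T) and 5.75 (B). This alternative leaves out cells by the family UMIs themselves. Thinned to 2000 UMIs, the 10% of all kept cells with the most family UMIs held 78.8% (syngeneic) and 38.3% (allogeneic) of them. Leaving out such cells thus tends to cut the syngeneic level more and raise the ratio. These values and the 3.41 over all kept cells, the upper ends of their ranges, are therefore no check of the ratio. Gates of at least 2 marker UMIs gave 2.74 in CD4 T cells, thinning gave 5.26 in B cells, and free RNA without erythroid barcodes, chosen after seeing the data, gave 2.01 in Foxp3+ T cells.

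Of the single-gene calls lost under an alternative, 28 had fewer than 20 UMIs left and 3 fell under 2-fold: Ifit2 (log2 ratio 0.92) and Oas3 (0.62) in CD4 T cells of at least 3447 UMIs, and Oasl1 in CD8 T cells (0.84) with free RNA without erythroid barcodes. In B cells the log2 ratios ran from 2.87 to 5.14 for Ifit1, 3.93 to 6.14 for Ifit3 and 4.84 to 8.12 for Ifit3b. Counts of genes at least 2-fold higher were 3 (CD4 T) and 2 (B) in cells of at least 3447 UMIs, 5 in CD8 T cells thinned to 1000 UMIs, and in Foxp3+ T cells 1 with the stricter gate, 1 with free RNA without erythroid barcodes and 6 with no minimum of UMIs. These counts are given without the share of all genes under the same alternative, so they describe how calls moved and support no direction. The count with no minimum takes in genes with fewer than 20 UMIs. Shares of cells with a UMI at 2000 UMIs per cell were 59.6% and 17.3% (CD4 T), 75.8% and 16.9% (CD8 T), 53.8% and 19.3% (Foxp3+ T), 72.2% and 7.39% (B) and 63.6% and 14.6% (all kept cells), allogeneic and then syngeneic. This depth left out 17 CD4 T, 29 CD8 T, 5 Foxp3+ T and 71 B cells of the allogeneic library and no syngeneic cell. The allogeneic shares are thus those of its deeper cells. No paired analysis was possible because each group has 1 library and the groups share only 1 replicate number. With 1 library per group, mouse, library and graft cannot be told apart, and few UMIs in either library limit the Oas2, Oasl2 and Foxp3+ T values.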
